A study of Mus musculus with 14 samples.

Results

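The genes described here are the voltage-gated sodium and calcium channel genes, taken by their names: every row of both count tables whose symbol was Scn followed by a number and a or b, or Cacna1, Cacna2d, Cacnb or Cacng followed by a number or letter. The rule found 40 genes (39 different symbols) among the 24912 genes listed in both tables. They were 14 sodium channel genes (10 alpha and 4 beta subunits) and 26 calcium channel genes (10 alpha1, 4 alpha2delta, 4 beta and 8 gamma subunits). The rule itself reads names and no measured value. Scn8a was listed under 2 Ensembl identifiers, and Scn2a, which these tables call Scn2a1, was not found by the rule and is given separately.

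The dorsal hippocampus of 8-month-old male mice on a C57BL6 background (C57BL6/J in the methods of the study) was taken for RNA sequencing, and n counts libraries. The basal experiment compared WT mice (n = 3) with THY-Tau22 mice (n = 2), heterozygous transgenics in which the neuron-specific Thy1.2 promoter drives human Tau carrying the G272V and P301S mutations. In the learning experiment every mouse had received 3 weekly injections. WT mice given saline stayed in the home cage (WT VEH_HC, n = 3) or were trained (WT VEH, n = 2). THY-Tau22 mice were trained after 500 µg of the carrier, carbon nanospheres called CSP (TAU VEH, n = 2), or of CSP-TTK21, the carrier with an activator of the acetyltransferases CBP and p300 (TAU MOL, n = 2). Training took 3 days of the spatial version of the Morris water maze, and tissue was taken 1 h after the last trial. WT mice received saline rather than CSP, so that genotype and carrier cannot be told apart in the comparisons of TAU with WT mice of this experiment. The authors had set aside 3 of their 12 learning libraries for their variability, a choice made after the data were seen.

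An alpha or alpha1 subunit is the pore of such a channel. It is built from repeated domains that each carry a voltage sensor, a helix with arginines or lysines spaced along one face, and it opens when the membrane depolarizes. Sodium channels carry the rising phase of the action potential, and calcium channels turn depolarization into calcium entry that triggers transmitter release at terminals and signalling to the nucleus in dendrites. The beta and alpha2delta subunits bring the pores to the membrane and tune them. Several gamma genes (Cacng2, Cacng3, Cacng4, Cacng5, Cacng7 and Cacng8) encode the transmembrane AMPA receptor regulatory proteins, which act on glutamate receptors of hippocampal synapses.

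The coding sequence of a voltage sensor shows how close some members are to each other, which matters because reads of 50 bases were counted only where they aligned to 1 place. The sensor of the fourth domain in 3 sodium channel genes is given 5′ to 3′ on the coding strand, read from mm9, with the arginine and lysine codons in capitals.
Scn1a, chr2:66112001-66112066, minus strand: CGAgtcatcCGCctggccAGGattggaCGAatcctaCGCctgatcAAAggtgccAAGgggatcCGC
Scn3a, chr2:65299676-65299741, minus strand: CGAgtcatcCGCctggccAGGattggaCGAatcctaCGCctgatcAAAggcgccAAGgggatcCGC
Scn9a, chr2:66322543-66322608, minus strand: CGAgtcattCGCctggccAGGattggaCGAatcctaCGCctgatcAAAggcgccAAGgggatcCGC
Each stretch holds 8 such codons in 66 bases. Scn1a and Scn3a, which lie in the same cluster on chromosome 2, differed at 1 of the 66 bases, and Scn1a and Scn9a at 2. Over whole coding transcripts, 5.33% of the 50-base windows of Scn1a, 6.41% of Scn3a and 5.14% of Scn9a were also present in another gene of this group or in Scn2a1, against 0.0536% for Scn8a. For the calcium channel pores the share was at most 0.217% (Cacna1g, whose shared windows were in Cacna1i). Reads from shared windows would not have been counted for either gene, so the levels of the chromosome 2 cluster leave out a small part of each gene.

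The first voltage sensor found in the calcium channel pores is shown for 7 genes of the 3 classes, to show how the classes differ, again with arginine and lysine codons in capitals.
Cacna1a, chr8:87038896-87038934, plus strand: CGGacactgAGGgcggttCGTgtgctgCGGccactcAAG
Cacna1b, chr2:24589484-24589522, minus strand: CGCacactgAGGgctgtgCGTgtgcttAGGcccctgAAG
Cacna1e, chr1:156482906-156482944, minus strand: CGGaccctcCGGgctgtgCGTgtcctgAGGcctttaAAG
Cacna1c, chr6:118726454-118726492, minus strand: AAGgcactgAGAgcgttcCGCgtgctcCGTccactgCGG
Cacna1d, chr14:30997249-30997287, minus strand: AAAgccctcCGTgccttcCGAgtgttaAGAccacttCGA
Cacna1g, chr11:94326732-94326761, minus strand: AGGacagtcCGTgtgctgCGAccgctcAGG
Cacna1h, chr17:25534225-25534254, minus strand: CGAacagtgCGTgtgctgCGGcccctcCGC
Cacna1a (P/Q-type), Cacna1b (N-type) and Cacna1e (R-type) form the presynaptic class, Cacna1c and Cacna1d are L-type pores, and Cacna1g and Cacna1h are T-type pores that open at low voltage. The first 5 genes hold 5 positive codons in 39 bases and the T-type genes 4 in 30 bases.

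Thy1, whose promoter drives the transgene, was read at 795 to 874 CPM (the counts of a gene relative to the TMM-scaled total of its library) in basal WT and 1842 to 2352 in THY-Tau22 libraries, and at 786 to 913 in WT against 1805 to 2109 in TAU libraries of the learning experiment, with no overlap between the genotypes. Totals ran from 28639121 to 37681155 counts in the basal and from 24693713 to 52180305 in the learning libraries. Markers of CA1, CA3 and dentate gyrus were present in every library. A list of 14 choroid plexus markers, the tissue that lines the ventricles, summed to 1613 and 2489 CPM in WT VEH and to 80.8 to 242 CPM in WT VEH_HC. For the TAU VEH libraries the sums were 243 and 290 CPM, and for TAU MOL 726 and 794 CPM. WT VEH_HC replicate 2 stood apart, with oligodendrocyte markers at 3811 CPM in sum against 6411 to 8348 in the other learning libraries and muscle markers at 98.0 against 20.1 to 35.3. The dependence of counts on GC content was not the same in all libraries. Across genes, Spearman's rho of GC content with a library's log2 deviation from the mean was positive in WT VEH (0.0845 and 0.274) and WT VEH_HC (0.413 to 0.453) and negative in TAU VEH (-0.615 and -0.411) and TAU MOL (-0.395 and -0.471). Values of GC content are therefore given beside the results.

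Of the 40 genes, 35 passed the filter on low counts in the basal and 36 in the learning table. Scn4a, the skeletal muscle pore, Scn10a and Scn11a, pores of sensory neurons, and Cacng1, a muscle subunit, passed in neither, with at most 11 counts in any library. Cacna1f, the pore of retinal photoreceptors, passed in the learning table alone, with 2 to 12 counts. Together the 40 genes took from 0.350% to 0.491% of all counts of a library.

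Levels are compared between genes as CPM per kb of annotated exon, averaged over the 9 learning libraries. Among sodium channel pores Scn8a, the main channel of the axon initial segment in adult neurons, stood first at 46.8 CPM per kb, well above Scn1a (5.32), which is best known from inhibitory neurons, and Scn3a (2.50), a largely embryonic channel. Scn2a1, which carries sodium current of excitatory neurons and is outside the rule, was read at 174 to 225 CPM over the 9 libraries. Per kb, Scn8a was above Scn1a and Scn1a above Scn3a in every one of them, at 41.9 to 54.0, 4.54 to 6.16 and 2.09 to 3.01 CPM per kb. Scn7a, a sodium-sensing relative that is not gated by voltage (0.305 CPM per kb), and Scn9a, a pore of sensory neurons (0.0780), were low throughout. The second entry of Scn8a, a locus of 1072 exon bases upstream of the gene, held 5.21 to 7.83 CPM.

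Among the sodium channel beta subunits Scn2b stood at 77.2 and Scn3b at 55.8 CPM per kb, and Scn4b, found in fast-spiking neurons, stood at 9.16 CPM per kb. Of the calcium channel pores, Cacna1a (22.3) and Cacna1e (21.9) stood first, then Cacna1h (18.8), Cacna1b (15.1), Cacna1i (12.9), Cacna1c (9.74), Cacna1g (6.51) and Cacna1d (4.61). Cacna1a and Cacna1e overlapped over the libraries, with 17.4 to 28.2 and 17.8 to 26.1 CPM per kb, so their order was not larger than the spread. The muscle pore Cacna1s (0.0729) and Cacna1f (0.0183) were lowest.

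Of the auxiliary calcium channel genes, Cacnb3 (111 CPM per kb) and Cacnb1 (49.2) led the beta subunits, with Cacnb4 (6.15) and Cacnb2 (5.24) far below. Cacna2d3 (25.9) and Cacna2d1 (15.8), a binding site of gabapentin, led the alpha2delta genes. Among the gamma genes the AMPA receptor regulators Cacng8 (140), Cacng7 (88.7) and Cacng3 (46.4) were ahead of Cacng2, which encodes stargazin (19.1), and of Cacng4 (12.1) and Cacng5 (5.17). Cacng6 (0.797) and Cacna2d4 (0.210) were close to the lower end. The value of Cacng8 is uncertain because only 663 bases of exon were annotated for it. The library kit does not keep the strand, and 16.03% of the exon bases of Cacnb4 are also exon of a gene on the opposite strand. Whether reads from these bases were left out or counted for either gene was not tested, so the level of Cacnb4 is uncertain. The same share was 5.86% for Cacng2, 5.54% for Cacna1d, 5.30% for Cacnb2 and 3.81% for Cacna1a.

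**Figure D1:**
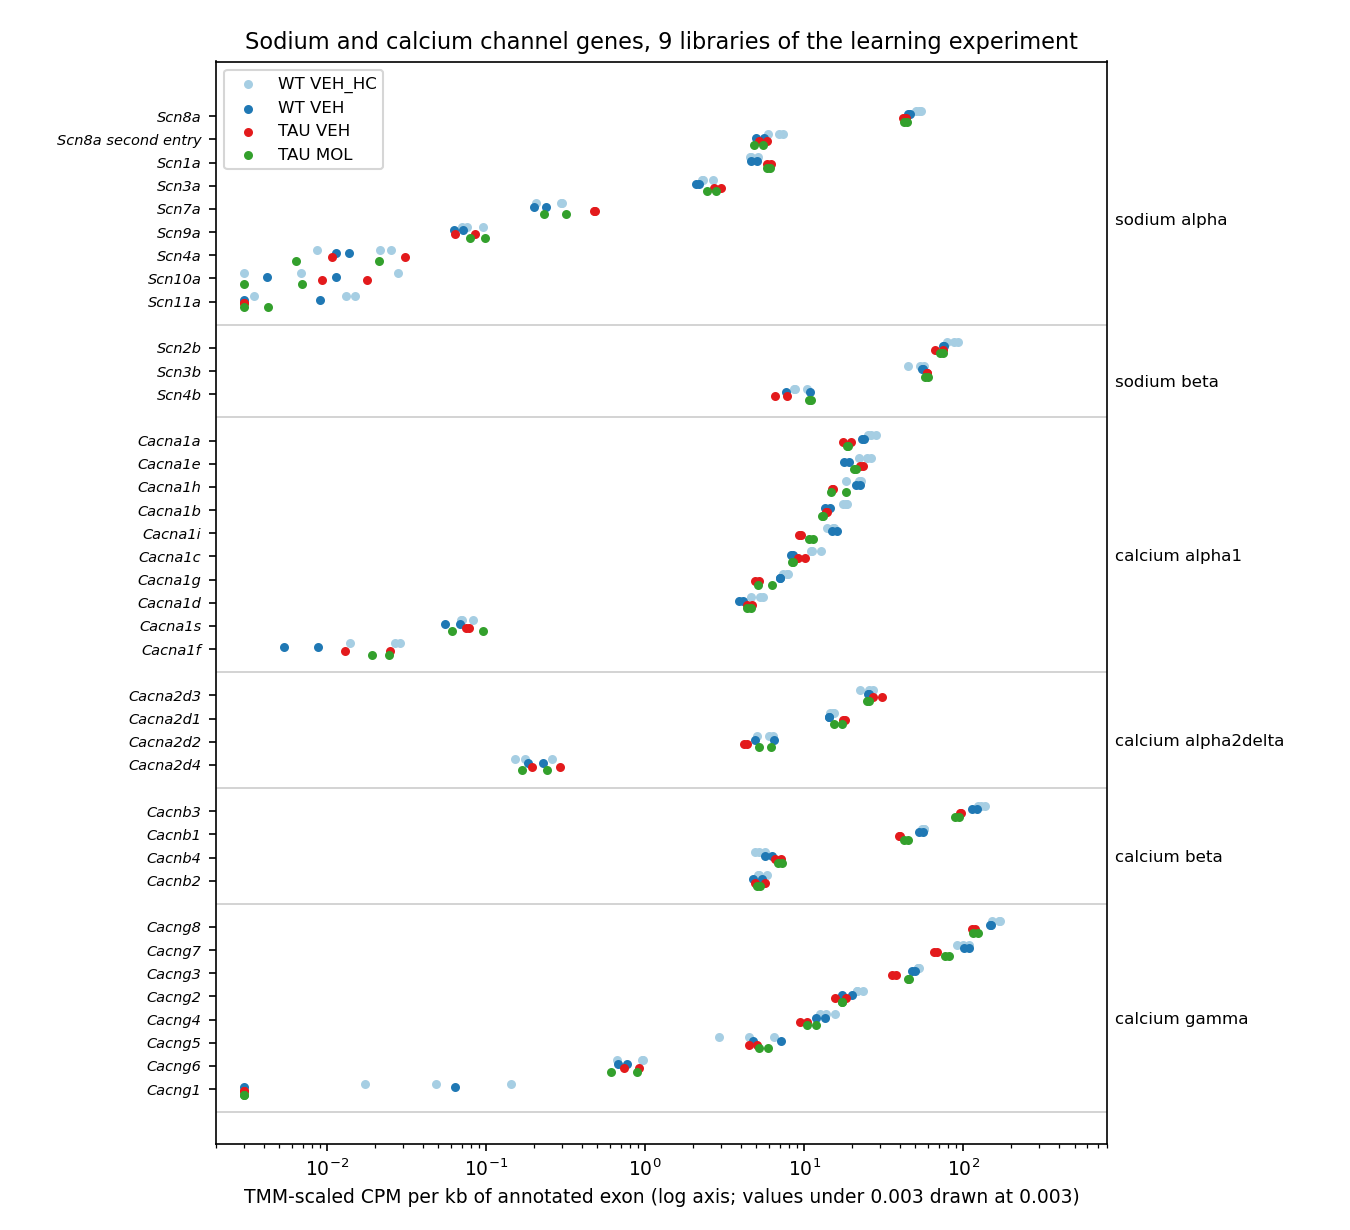
Level of 38 of the 40 genes in the 9 learning libraries, 1 point per library coloured by group, as TMM-scaled CPM per kb of annotated exon on a log axis, with genes ordered within each subunit class. Cacng8 and Cacnb3 lead among the genes drawn, and the 4 genes that failed the filter sit at the left.

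Training of WT mice was compared first, WT VEH against WT VEH_HC. 4 calcium channel pores were lower in the trained mice and no member was higher. The 4 were Cacna1c and Cacna1d, which are the L-type pores of neurons, and the presynaptic Cacna1b and Cacna1e. The 4 genes lay 1.27 to 1.38 times below the home cage level. The other L-type pores, Cacna1f and Cacna1s, were tested and not called. Over all 16820 genes tested, 8.4% were called (1413, of which 900 were higher and 513 lower), where called means that edgeR's quasi-likelihood test gave an adjusted p below 0.05 together with a log2 fold change beyond 0.2 in either direction. Of the 36 members tested, 4 (11.1%) were called, a share near that background, and all 4 in the direction that held 3.05% of all genes.

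Cacna1c (ENSMUSG00000051331, mm9 chromosome 6 from 118542314 to 119146249) carries the L-type current that couples activity to transcription. Its level was 96.7, 112 and 98.1 CPM in the home cage and 72.4 and 75.4 CPM after training. All trained libraries were below all home cage libraries, with a log2 fold change of -0.47 (SE 0.078, edgeR adjusted p = 0.00826). Cacna1d (ENSMUSG00000015968, chromosome 14 from 30853135 to 31304342), the L-type pore that opens at lower voltage, was read at 51.1, 49.1 and 43.2 CPM in the home cage and 36.4 and 38.6 CPM after training. The log2 fold change was -0.35 (SE 0.082, edgeR adjusted p = 0.0297).

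Cacna1b (ENSMUSG00000004113, chromosome 2 from 24459407 to 24618672) gives the N-type current of nerve terminals. Home cage libraries held 185, 181 and 175 CPM and trained libraries 133 and 145 CPM. This drop of 0.37 on the log2 scale (SE 0.060, edgeR adjusted p = 0.00679) had the smallest SE of the 4. Cacna1e (ENSMUSG00000004110, chromosome 1 from 156239649 to 156573049), the R-type pore of spines and terminals, was at 313, 332 and 281 CPM in the home cage and 241 and 226 CPM after training (log2 fold change -0.40, SE 0.075, edgeR adjusted p = 0.0134). In each of the 4 genes the groups did not overlap.

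Of the 36 members, 26 had a negative and 10 a positive log2 fold change. In 17 of the 36 members both trained libraries were below all 3 home cage libraries, and in 0 both were above, while over all genes tested 20.8% were below and 23.0% above. The median log2 fold change was -0.14 over the members and -0.0028 over all genes. Scn8a had a log2 fold change of -0.20 (home cage 559 to 598 CPM, trained 499 and 511 CPM) and an edgeR adjusted p of 0.0549. It passed with DESeq2, which called 13.8% of all genes, with the replicate number as a block (edgeR adjusted p = 0.0282) and without WT VEH_HC replicate 3. Cacna1a (288, 300.0 and 322 CPM in the home cage, 264 and 270.0 CPM trained), Scn2b (358 to 420 against 338 and 346 CPM) and Cacng2 (117 to 129 against 95.5 and 110 CPM) were also lower in both trained libraries, each with an edgeR adjusted p above the limit in the main test. Scn2b was called with the block (17.8% of all genes) and without WT VEH_HC replicate 3 (16.7%), and Cacng2 without a filter on low counts (10.4%). The T-type pores Cacna1h and Cacna1i overlapped between the groups, with log2 fold changes of 0.042 and 0.060.

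Once each library was corrected for GC content and exon length, Cacna1c (-0.35, edgeR adjusted p = 0.0257), Cacna1e (-0.27, 0.0341) and Cacna1b (-0.24, 0.0391) stayed past the limit and Cacna1d (-0.26, 0.0587) did not, while 4.37% of all genes were called. The 4 genes have exon GC contents of 49.0% to 52.8%, close to the 52.4% median of the members. The call rests on 2 trained libraries: without WT VEH replicate 1 none of the 36 members was called, along with 0.422% of all genes, and without replicate 2 only Cacna1b was (1.63% of all genes). Without WT VEH_HC replicate 1, 3 of the 4 genes were called (3.67% of all genes), and without replicate 2, the library that stood apart, the 4 genes were called again (5.70%). Without WT VEH_HC replicate 3 there were 7 calls among the members and calls for 16.7% of all genes. The share over all genes thus moved with that of the members. All 14 choroid plexus markers were higher in both WT VEH than in all WT VEH_HC libraries, and 3 of 6 oligodendrocyte markers were higher too. Between the same libraries 3 of the 7 neuron markers found, 3 of 5 CA3, 3 of 6 dentate gyrus and 3 of 5 muscle markers were lower, and 1 CA3 marker was higher. Their part in these differences was not tested. In bulk tissue, fewer cells of a type and less RNA per cell cannot be told apart.

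**Figure D2:**
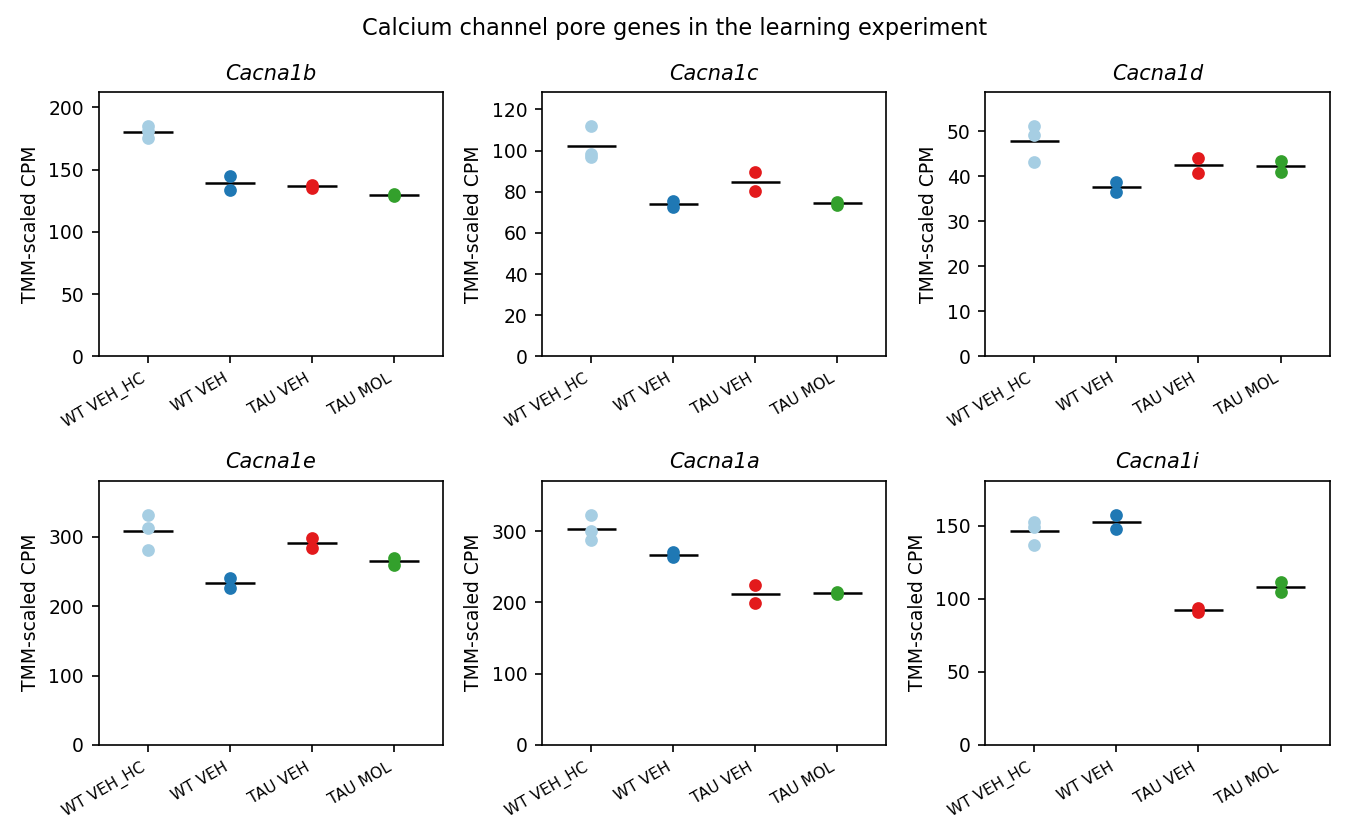
TMM-scaled CPM of 6 calcium channel pore genes in the learning experiment, 1 point per library and a line at the group mean, each axis starting at 0. Cacna1b, Cacna1c, Cacna1d and Cacna1e have both WT VEH points below the 3 WT VEH_HC points, and Cacna1a and Cacna1i have both TAU VEH points below both WT VEH points.

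Promoter sequence was read for the genes that were called lower after training. RefSeq (GRCm38.p6) gives a single start for Cacna1b and Cacna1e, and 3 and 2 starts for Cacna1c and Cacna1d, among which gene counts do not distinguish, so the first pair is shown, from 250 bases before to 50 bases after the start. Capitals mark TGACG, the core of the cAMP response element bound by CREB, a factor that recruits CBP, and GGGCGG, the GC box.
Cacna1b, chr2:24763103-24763402, minus strand: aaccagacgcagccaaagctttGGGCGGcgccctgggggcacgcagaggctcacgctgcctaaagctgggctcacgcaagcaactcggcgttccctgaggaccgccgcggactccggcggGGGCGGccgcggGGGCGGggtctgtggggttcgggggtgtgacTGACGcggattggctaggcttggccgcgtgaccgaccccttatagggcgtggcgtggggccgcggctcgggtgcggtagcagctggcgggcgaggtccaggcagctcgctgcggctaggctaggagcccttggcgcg
Cacna1e, chr1:154725871-154726170, minus strand: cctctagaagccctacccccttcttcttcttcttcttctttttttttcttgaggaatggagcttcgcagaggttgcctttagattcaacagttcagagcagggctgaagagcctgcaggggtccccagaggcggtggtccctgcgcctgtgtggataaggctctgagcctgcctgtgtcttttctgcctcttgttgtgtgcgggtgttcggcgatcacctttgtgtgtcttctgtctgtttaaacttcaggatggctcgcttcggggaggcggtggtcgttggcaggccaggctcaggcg
The window of Cacna1b has 1 TGACG and 3 GC boxes and a GC content of 72.3%, and that of Cacna1e has none of either and 55.3%. Promoters were listed for 29 of the 39 member symbols, 39 windows in all. On either strand TGACG was present in 15.4% of these windows and in 20.8% of all 32851 promoters, and GGGCGG in 41.0% and 35.7%. The full element TGACGTCA, which contains it, was in 0 of the 39 windows and in 1.79% of all promoters.

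The largest set of differences was between genotypes after training, TAU VEH against WT VEH. Of 36 members, 15 (41.7%) were called, against 14.4% of all genes (2423 of 16820, with 3.61% higher and 10.8% lower). 5 members were higher in TAU VEH (Scn1a, Scn3a, Scn7a, Cacna1e and Cacna2d1) and 10 were lower, among them Cacna1a, all 3 T-type pores (Cacna1g, Cacna1h and Cacna1i), Cacnb1, Cacnb3, Cacng3, Cacng7 and Cacng8. The GC content of the 2 sets of genes did not overlap. The 5 higher members had 40.2% to 49.2% GC in their exons and the lower ones named here 51.1% to 61.7%, and the TAU VEH libraries held fewer counts of GC-rich genes over the whole table. The part of this in the calls of the members was not tested beyond the correction given below. Scaling by library size alone, which moved the median of all genes from 0.0041 to 0.15 on the log2 scale, called 9 members higher and 7 lower, and 21.4% of all genes, with 2578 of 3598 calls higher in place of 608 of 2423.

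All 3 T-type pores tested, which set burst firing near the resting potential, were lower in TAU VEH, and Cacna1i had the lowest adjusted p of all members. Cacna1i (ENSMUSG00000022416, chromosome 15 from 80117668 to 80228709) was read at 157 and 148 CPM in WT VEH and 91.2 and 93.5 CPM in TAU VEH. The groups were far apart relative to the spread, with a log2 fold change of -0.72 (SE 0.074, edgeR adjusted p = 0.000957), or 1.65 times lower. Cacna1g (70.3 and 70.4 against 48.9 and 52.0 CPM, log2 fold change -0.48) and Cacna1h (219 and 206 against 147 and 147 CPM, -0.53) had edgeR adjusted p of 0.00482 and 0.00884. After correction for GC and length Cacna1i kept a log2 fold change of -0.43 (edgeR adjusted p = 0.0103), while Cacna1g (-0.24, 0.179) and Cacna1h (-0.23, 0.322) no longer passed. The exons of the 3 genes hold 57.8% to 59.5% GC.

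Among the AMPA receptor regulators, Cacng7 (ENSMUSG00000069806, chromosome 7 from 3333055 to 3367810) fell from 242 and 223 CPM in WT VEH to 150.2 and 144 CPM in TAU VEH (log2 fold change -0.66, SE 0.084, edgeR adjusted p = 0.00106). Cacng3 (ENSMUSG00000066189, chromosome 7 from 129815258 to 129912905) was at 72.6 and 75.6 CPM in WT VEH and 57.5 and 54.4 CPM in TAU VEH, a drop of 0.40 on the log2 scale (SE 0.065, edgeR adjusted p = 0.00210). Its GC content of 51.1% lies close to the 50.0% median of all genes. Both kept their call with the GC and length correction, at -0.38 each (edgeR adjusted p = 0.0328 for Cacng7 and 0.0151 for Cacng3). Cacng8, at 98.0 and 98.6 CPM against 75.2 and 77.97 CPM, went from -0.36 (edgeR adjusted p = 0.00729) to -0.063 (0.702) with the correction.

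Cacng3, Cacng7 and Cacna1i were the members whose call held in all 13 alternatives run for this comparison, leaving out each library included. The CA1 markers, 5 of 5, were lower in both TAU VEH than in both WT VEH libraries, their sum being 584 and 619 against 994 and 1069 CPM, and all 14 choroid plexus markers were lower as well. So were 4 of 7 interneuron markers (sum 784 and 813 against 863 and 902 CPM), with 1 higher, and 3 of 5 endothelial markers. On the other side 3 of 7 neuron and 3 of 5 muscle markers were higher, with 1 lower in each list. Over all genes tested, 29.4% were lower and 28.5% higher in both TAU VEH than in both WT VEH libraries. The 7 neuron markers summed to 4594 and 4609 CPM in TAU VEH and 4166 and 4576 CPM in WT VEH. Without TAU VEH replicate 1, 5 members and 5.29% of all genes were called, and without TAU VEH replicate 2, 10 members and 7.17%. Without WT VEH replicate 1 the calls were 9 members and 7.07% of all genes, and without replicate 2, 11 members and 7.36%. The part of these cell type differences in the channel genes was not tested.

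Cacna1a (270.0 and 264 against 224 and 199 CPM, log2 fold change -0.34, edgeR adjusted p = 0.0125), the main pore of fast transmitter release, was lower with an exon GC content of 56.6%. Of the beta subunits, Cacnb1 (251 and 240 against 178 and 180 CPM, -0.45, 0.00126) and Cacnb3 (354 and 378 against 299 and 296 CPM, -0.30, 0.0152) were lower by the same edgeR test. None of these 3 genes kept its call with the GC and length correction, and Cacnb3 (0.082), with a GC content of 61.7%, turned to the other side of 0.

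The members that were higher in TAU VEH included 3 genes of the chromosome 2 cluster, Scn1a, Scn3a and Scn7a. Scn1a was at 55.8 and 51.4 CPM in WT VEH and 64.7 and 68.2 CPM in TAU VEH (log2 fold change 0.31, edgeR adjusted p = 0.0228), and Scn3a at 26.3 and 27.4 against 37.9 and 33.9 CPM (0.42, 0.0160). Scn2a1, in the same cluster and outside the rule, was also higher (0.32, edgeR adjusted p = 0.00668). Their groups did not overlap, but with the GC and length correction the log2 fold changes were 0.13, 0.22 and 0.16 and none passed.

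Scn7a (ENSMUSG00000034810, chromosome 2 from 66511482 to 66622971) had the largest rise of the members that were called, from 1.47 and 1.75 CPM to 3.50 and 3.55 CPM (log2 fold change 1.13, SE 0.23, edgeR adjusted p = 0.00731), at 61 to 177 counts in the 9 learning libraries. Its exon GC content, 40.2%, is the lowest of all members, and after the correction its value was 0.95 (edgeR adjusted p = 0.0622). With the correction and the replicate block together Scn7a was called, as were 4.33% of all genes. Cacna2d1 (121 and 119 against 152 and 148 CPM, 0.32, edgeR adjusted p = 0.00939) and Cacna1e (241 and 226 against 299 and 284 CPM, 0.32, 0.0225) gave 0.15 and 0.24 with the correction, past the limit in neither. Cacna1e is the same gene that was lower in WT VEH than in the home cage, and both comparisons share the 2 WT VEH libraries.

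**Figure D3:**
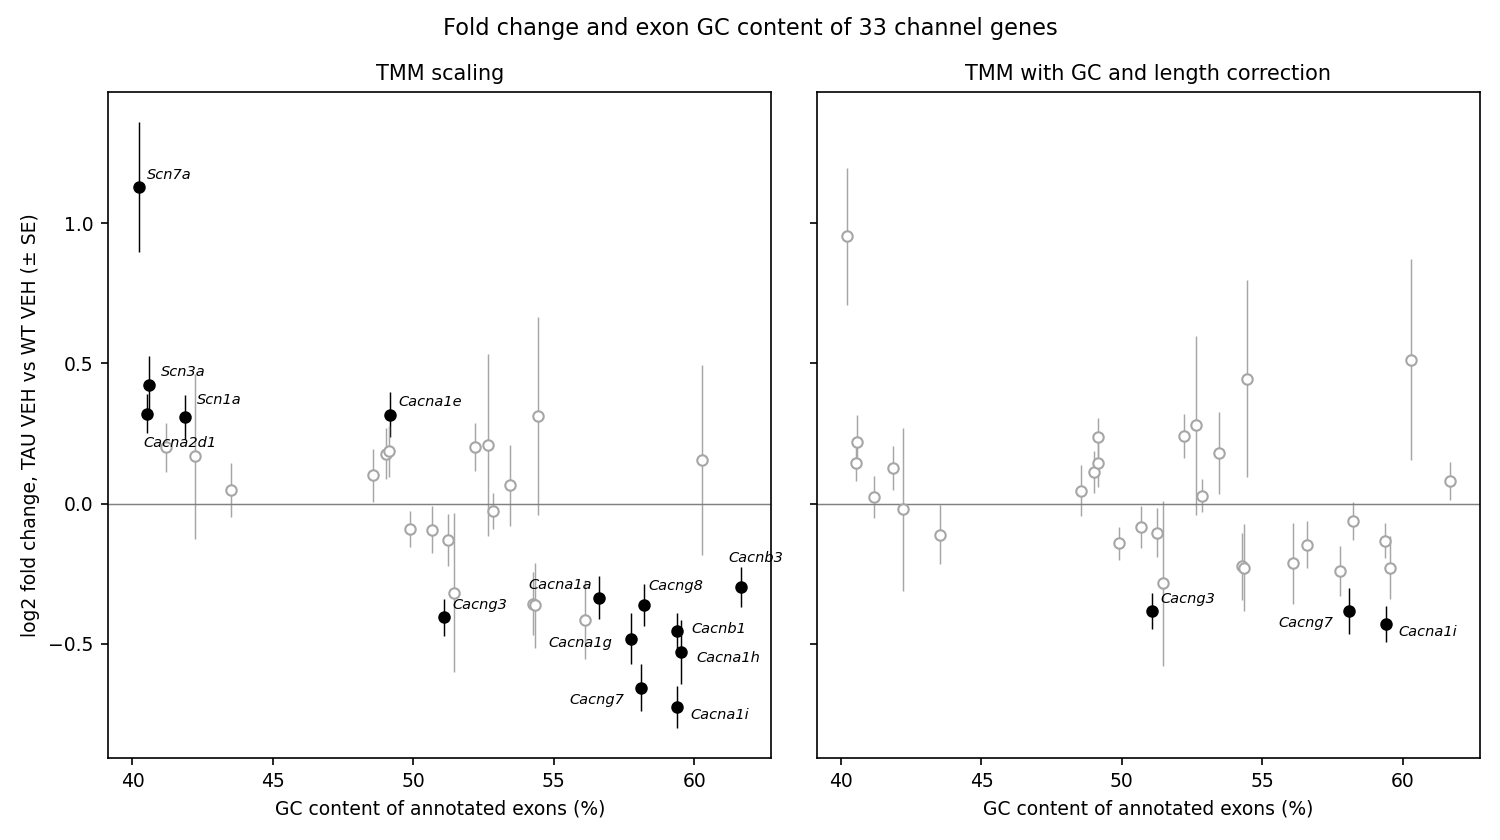
Log2 fold change (± SE) of TAU VEH against WT VEH for 33 members, plotted against the GC content of their exons, with TMM scaling on the left and with the GC and length correction on the right. Filled points passed the limits: 14 on the left, falling from upper left to lower right, and 3 (Cacng3, Cacng7 and Cacna1i) on the right. Of the 36 members tested, 3 are not drawn, among them Cacna1f with 2 to 12 counts per library.

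Across the 36 members, exon GC content and log2 fold change had a Spearman's rho of -0.69 before and -0.34 after the correction, given as a description, since genes share libraries and are not independent. Of the 12 members with at least 56% GC, 9 were called lower and 0 higher, and of all 3065 genes in this class 36.6% were lower and 0.228% higher. Of the 7 members under 45%, 4 were called higher and 0 lower, against 9.41% and 1.09% of all genes there. Of the 17 members in between 1 was called each way, against 2.35% higher and 6.64% lower. The same split by GC content was thus present over the whole table. After the correction 3 of 36 members were called (8.33%), all lower, against 3.0% of all genes (505).

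CSP-TTK21 was compared with its carrier in trained THY-Tau22 mice, TAU MOL against TAU VEH. Neither any of the 36 members nor any of the 16820 genes tested was called by edgeR (0.0%). At an unadjusted p under 0.05 there were 9 of 36 members and 1064 of all genes (6.33%). DESeq2 called 54 of all genes (0.302%), and of the members it called only Scn4b. The median log2 fold change of the members was 0.027, with a median SE of 0.092.

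Scn4b (ENSMUSG00000046480, chromosome 9 from 44946520 to 44962235), a beta subunit tied to fast resurgent sodium current, is named here after its values were seen. It was at 38.6 and 32.4 CPM in TAU VEH and 53.0 and 54.7 CPM in TAU MOL, a log2 fold change of 0.60 (SE 0.15, edgeR adjusted p = 0.347, DESeq2 adjusted p = 0.0174). Outside the main fit, edgeR called Scn4b with only the compared groups (0.368% of all genes) and without a filter on low counts (0.898%). WT VEH lay at 53.8 and 37.7 CPM and WT VEH_HC at 42.4 to 51.4 CPM, so the WT libraries spanned much of the same range. All 7 interneuron markers were higher in both TAU MOL than in both TAU VEH libraries (sum 907 and 997 against 784 and 813 CPM), and so were all 14 choroid plexus markers and 4 of 5 CA1 markers (sum 851 and 853 against 584 and 619 CPM). All 5 CA3 markers and 4 of the 7 neuron markers found were lower. Over all genes tested, 21.5% were higher and 17.4% lower in both libraries. Their part in the value of Scn4b was not tested.

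In 10 members both TAU MOL libraries were above both TAU VEH libraries and in 7 below, so that 17 of 36 did not overlap, against 38.9% of all genes. The AMPA receptor regulators Cacng3 (57.5 and 54.4 CPM in TAU VEH, 68.4 and 69.1 CPM in TAU MOL) and Cacng7 (150.2 and 144 against 179 and 170 CPM) were among those above, as was Cacna1i (91.2 and 93.5 against 112 and 105 CPM). Their log2 fold changes were 0.30, 0.24 and 0.23, with edgeR adjusted p of 0.254, 0.635 and 0.566. Scn7a was among those below, with 2.32 and 1.70 CPM in TAU MOL (log2 fold change -0.81, edgeR adjusted p = 0.422). Cacng3, Cacng7, Cacna1i and Scn7a had been called in TAU VEH against WT VEH. That comparison uses the same TAU VEH libraries, so choosing genes by it favours a shift the other way here. Cacna1a (212 and 215 CPM in TAU MOL) and Scn1a (67.8 and 64.5 CPM) overlapped with TAU VEH.

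TAU MOL was also compared with WT VEH, which shares libraries with both comparisons above. Of 36 members, 7 were called (19.4%), against 5.63% of all genes (947, with 0.612% higher and 5.02% lower). Scn1a was higher (67.8 and 64.5 against 55.8 and 51.4 CPM, log2 fold change 0.30, edgeR adjusted p = 0.0471). Cacna1i (112 and 105 against 157 and 148 CPM, -0.50, 0.00993), Cacng7 (-0.41, 0.0189), Cacnb3 (-0.36, 0.0156), Cacna1a (-0.32, 0.0332), Cacnb1 (-0.31, 0.0183) and Cacng8 (-0.31, 0.0334) were lower by the same edgeR test. The lower genes had 56.6% to 61.7% GC and Scn1a 41.9%. With the GC and length correction 0 members were called, against 0.125% of all genes. At an unadjusted edgeR p under 0.05 there were then 4 of 36 members and 2042 of all 16820 genes. With library size alone 6 were called, 4 of them higher, and the all-gene split went from 103 of 947 higher to 757 of 1083, or 6.44% of all genes called. Leaving out any 1 of the 4 libraries also left 0 calls among the members, and 2 to 4 over all genes. In both TAU MOL libraries 13 of 14 choroid plexus, 3 of 5 CA1, 3 of 7 neuron and 3 of 5 endothelial markers were lower than in both WT VEH libraries, while 4 of 7 interneuron markers were higher and 1 was lower. Over all genes tested, 26.9% were lower and 25.6% higher in this sense. Their part in the calls was not tested.

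In the basal experiment, for which the labels give no training or injection, THY-Tau22 was compared with WT. By edgeR 0 of 35 members were called, against 0.0245% of all genes (4 of 16324). DESeq2 called 0 members as well, against 0.217% of all genes. Only Cacna1e had an unadjusted p under 0.05, as did 4.92% of all genes: it was read at 210, 149 and 207 CPM in WT and 245 and 271.9 CPM in THY-Tau22, a log2 fold change of 0.46 (SE 0.16, edgeR adjusted p = 0.901). Cacna1i was at 72.8, 75.0 and 87.3 CPM in WT and 85.9 and 66.7 CPM in THY-Tau22, Cacng7 at 158, 165 and 160.4 against 155 and 127 CPM, and Cacng3 at 46.3, 65.1 and 51.8 against 56.8 and 49.4 CPM. Apart from Cacng7, where both THY-Tau22 libraries lay below WT, these overlapped. The groups did not overlap in 6 of 35 members (17.1%), against 18.5% of all genes. The 2 THY-Tau22 libraries differed strongly in GC dependence (rho 0.480 and -0.598), and Scn1a, for one, was at 58.7 CPM in the first and 92.7 CPM in the second.

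Cacng5 and Cacna2d2 varied more between libraries of one group than between groups. Cacng5, an AMPA receptor regulator, was at 37.7, 15.6 and 32.96 CPM in the 3 basal WT libraries, and Cacna2d2, another binding site of gabapentin, at 41.1, 20.7 and 34.3 CPM. WT replicate 2 was the lowest of the 5 basal libraries for both genes. Of 6 thalamus markers the same library was lowest for Plekhg1 and for Zic1, a transcription factor of thalamus and septum, but not for Prkcd, Tcf7l2, Lef1 or Rora. Zic1 was read at 64.2, 14.0 and 61.0 CPM in WT and 18.1 and 27.0 CPM in THY-Tau22, and the 6 markers summed to 229, 105 and 221 CPM in WT and 110 and 155 CPM in THY-Tau22.

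In the learning libraries WT VEH_HC replicate 2 was the lowest of its group for both genes (11.2 CPM of Cacng5 and 30.3 CPM of Cacna2d2) and for Zic1 (10.6 CPM). Of the other thalamus markers, Prkcd, Plekhg1 and Rora were also lowest in this library of the group, Tcf7l2 was not, and Lef1 was highest. The part of such neighbouring tissue in these genes was not tested. The main edgeR test called neither in any comparison. With the replicate number as a block, edgeR called Cacng5 higher in WT VEH than in WT VEH_HC (log2 fold change 0.69, edgeR adjusted p = 0.00778) and, for TAU VEH against WT VEH, Cacna2d2 lower (-0.41, 0.0109), and other alternatives without the block, such as no filter on low counts, called them too. DESeq2 called Cacna2d2 lower in the TAU VEH than the WT VEH libraries (25.8 ± 0.797 against 34.3 ± 6.50 CPM, SD, n = 2 each, DESeq2 adjusted p = 0.0291), where it called 17.9% of all genes.

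**Figure D4:**
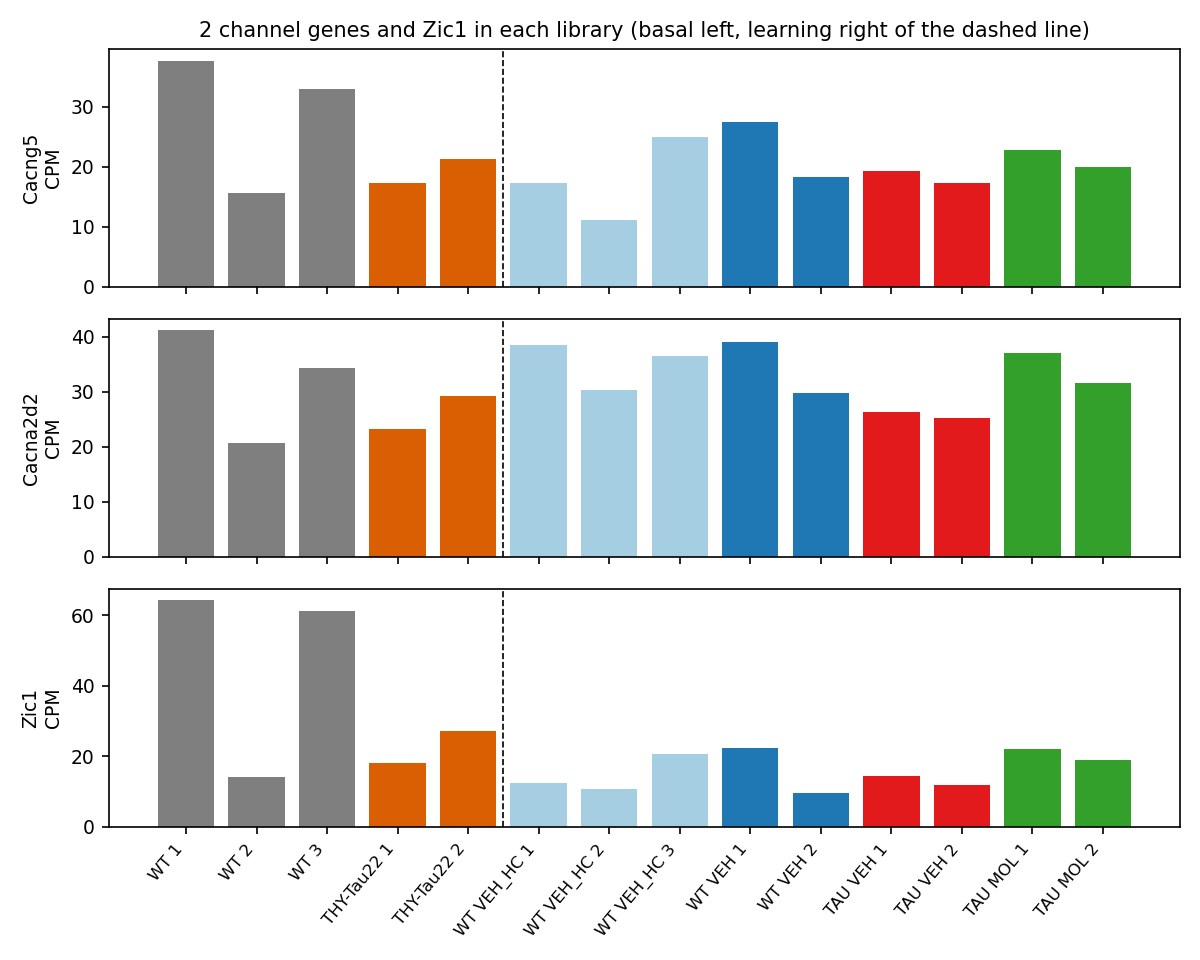
TMM-scaled CPM of Cacng5, Cacna2d2 and, for comparison, Zic1 in each of the 14 libraries, 1 bar per library from 0, basal libraries left and learning libraries right of the dashed line. WT replicates 1 and 3 of the basal experiment stand above WT replicate 2 in all 3 panels.

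Genes that work with these channels were taken from 4 lists. Of 10 tested sodium channel partners, 4 were higher in TAU VEH than in WT VEH (3.61% of all genes) and 0 lower (10.8%): Scn2a1, the leak channel Nalcn (log2 fold change 0.31), its partner Unc80 (0.28) and Fgf14 (0.34), which binds sodium channel pores at the axon initial segment. After training, Unc79 (-0.27) and Unc80 (-0.25) were lower in WT mice. Of 14 calcium channel partners, Stac (-0.85) and Stac2 (-0.50), adaptors of L-type channels, were lower in TAU VEH, and Rimbp2 (-0.30), which ties calcium channels to the active zone, was lower after training. With the GC and length correction 0 of these 24 genes were called in either comparison, where it called 3.0% of all genes between genotypes and 4.37% after training.

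Of 11 genes of calcium release and store refilling, Ryr2, the main neuronal ryanodine receptor, was lower after training (log2 fold change -0.47, edgeR adjusted p = 0.00825, and -0.30, 0.0318 with the correction) and higher in TAU VEH than in WT VEH (0.34). Stim1 (-0.36), Orai1 (-0.49) and Orai3 (-0.40), which refill calcium stores, were lower in TAU VEH, Orai3 also with the correction. Of 10 calcium-dependent kinases and phosphatase genes, Camk2a, the abundant kinase of excitatory synapses, was lower in TAU VEH (-0.55, edgeR adjusted p = 0.00186, and -0.49, 0.0249 with the correction), and Camk4 was higher (0.38). With the correction Camk4 was not called. Camkk1 (-0.31) and Camk2g (-0.30) were lower after training, and only Camk2g also with the correction. Against WT VEH, TAU MOL had lower Orai1 (-0.46), Orai3 (-0.37) and Camk2a (-0.50) and higher Camk2d (0.40), and none of these was called with the correction. In the basal comparison and between TAU MOL and TAU VEH 0 genes of the 4 lists were called, against 0.0245% and 0.0% of all genes. For the calls in the lists, the share over all genes was 14.4% for TAU VEH against WT VEH, 8.4% after training and 5.63% for TAU MOL against WT VEH.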

How the data were processed

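The authors sequenced poly-A RNA (TruSeq libraries, unstranded, single-end 50-base reads), mapped it to mm9 with TopHat2 2.0.10 and Bowtie2 2.1.0, counted uniquely aligned reads per gene with HTSeq 0.5.4p3 on Ensembl release 67 and deposited, per gene and library, the raw counts and a normalized signal, the counts divided by DESeq2 size factors. The deposited counts were analysed, and the deposited signal served only to read the size factors. The learning table had 138 lines without values, which were left out.

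Low counts were filtered with filterByExpr. edgeR 4.0.16 (TMM scaling, quasi-likelihood F test, Benjamini-Hochberg adjustment over all genes tested) was the main test, with 1 model for the basal libraries and another for all 9 learning libraries. A call needed an adjusted p below 0.05 together with a log2 fold change beyond 0.2 in either direction. Members could be named with levels throughout and with test values where called. Other genes come from lists, and values shown for members that were not called, such as Scn4b, Scn8a, Cacng3 and Cacna2d2, were chosen after they were seen. The rule for the members reads names alone, but the gene family and the lists were chosen with earlier results of these data known. The study counts the basal groups and the samples it set aside as mice, while the labels only number the replicates. The p-values measure the spread between these libraries and leave out that of the 3 set aside for their variability. Alternatives were DESeq2 1.42.0, other scalings and filters, separate fits, the replicate number as a block, a loess correction for GC content and length (span 0.3), and leaving out each library. Gene positions, exon lengths and GC content came from the NCBIM37 (mm9) annotation and promoters from RefSeq (GRCm38.p6). Values of 2 members and some sequences are not reported here, and counts over all members include them. The test was tried on simulated data first. Counting without molecular identifiers means that depth covers counting error only.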

Additional observations from a re-analysis of the deposited data

Results flagged for a closer look

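Scn8a differed in opposite directions between the genotypes of the 2 experiments. In the basal libraries it was read at 360.0, 317 and 340.4 CPM in WT and 377 and 379.9 CPM in THY-Tau22, every THY-Tau22 library being above every WT library, with a log2 fold change of 0.16. In the trained mice it was at 511 and 499 CPM in WT VEH and 485 and 464 CPM in TAU VEH, every TAU VEH library being below every WT VEH library, with a log2 fold change of -0.091. Over all genes, 9.01% were above in the basal and 29.4% below in the trained comparison. Neither value passed the edgeR test, and the difference between the experiments was not tested, since the tables were normalized separately.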

How the results depend on the processing

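With the GC and length correction, without and with the replicate block, Cacnb3 (0.082 and 0.083) changed sign in TAU VEH against WT VEH, and the cause was not tested. For WT VEH against WT VEH_HC the 4 calls (8.4% of all genes) became 2 when only the compared groups were fitted (1.89%), 8 with the replicate block (17.8%), and 0 to 7 when 1 library was left out (0.422% to 16.7%). DESeq2 gave 5 calls (13.8%) and the fit without a filter 6 (10.4%). The median of -0.14 became -0.16 with DESeq2, -0.12 with library size alone, -0.17 without a filter, -0.11 with the block, -0.11 with the GC and length correction, -0.10 with both, and -0.14 to -0.11 when 1 library was left out. For TAU VEH against WT VEH the 15 calls (14.4% of all genes) became 3 with the correction (3.0%), 4 with the correction and block (4.33%), and 5 to 11 when 1 library was left out (5.29% to 7.36%). DESeq2 gave 17 calls (17.9%), the fit of only the compared groups 18 (21.0%) and the fit without a filter 20 (11.1%). The median of -0.06 became 0.0888 with library size alone, 0.0016 with the correction, 0.0037 with the correction and block, and -0.11 to -0.0238 when 1 library was left out. For TAU MOL against TAU VEH the 0 calls became 1 with DESeq2 (0.302% of all genes), 3 without a filter (0.898%) and 1 with only the compared groups (0.368%), and the median of 0.03 became 0.0017 with library size alone, 0.0124 with only the compared groups, 0.0160 with the correction, 0.0159 with correction and block, 0.0174 without a filter, 0.0176 with DESeq2 and 0.0250 to 0.0632 when 1 library was left out. For TAU MOL against WT VEH the 7 calls (5.63% of all genes) became 0 with the correction (0.125%) and 0 with correction and block (0.303%). They became 9 with only the compared groups (9.19%), 10 with DESeq2 (14.2%) and 10 without a filter (6.13%). The median of -0.03 became -0.0141 with DESeq2 size factors, 0.0948 with library size alone, -0.0378 without a filter, -0.0052 with the correction, -0.0057 with correction and block, and -0.0723 to -0.0138 when 1 library was left out. Leaving out a library from a pair assumes that the remaining one varies like the other groups.

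Replicate numbers were shared by the groups. The deviations of same-numbered libraries correlated at -0.16 to -0.07 over 2 basal pairs and -0.02 to 0.24 over 12 learning pairs. In a group of 2 the deviations are mirror images, so these pairs are not independent. They cannot decide whether same-numbered libraries share more than a number. With the replicate block the member calls were 8, 18, 0 and 10 in the 4 learning comparisons and 0 in the basal one, where 17.8%, 16.6%, 0.0%, 7.85% and 0.227% of all genes were called. The calls of single genes reported from the main test, with Scn4b in TAU MOL against TAU VEH, make 26 values. Of these 7 stayed on their side of the limit with the correction, 19 with library size alone and 26 with the block. Genes outside the 26, such as Scn8a, Scn2b, Cacng5 and Cacna2d2, were called with the block. Groups of 2 or 3 libraries, not counting depth, limit the precision of the abundant members, and counts under 200 per library limit Scn7a.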
